A study of Mus musculus with 6 samples.

Results

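The genes described here are the 5 subunits of NF-kB, Rela, Rel, Relb, Nfkb1 and Nfkb2, and 5 genes that restrain or modify it, Nfkbia, Nfkbie, Nfkbiz, Bcl3 and Tnfaip3. They were taken by symbol, 10 of the 56748 genes in the deposited files, and each symbol matched 1 identifier. Expression was measured by RNA sequencing in the mouse mammary carcinoma line 4T1, labelled as wild type, with 3 control samples and 3 treated samples. Treated cells received 125 µg/mL of Au/MoS2/Bi2S3 particles overnight and near-infrared (NIR) light for 8 min, and were washed 24 h later. Both groups carry a collection time of 48 h. Cells given particles alone or light alone were not analysed here. The labels speak of pooled RNA from 3 individuals and do not say whether samples came from separate cultures, so the p-values below rest on a spread that may be technical.

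As background, NF-kB is a dimer of Rel family proteins that is held in the cytoplasm by inhibitors of the IkB family. Inflammatory signals activate the IkB kinase complex, the inhibitor is degraded, and the dimer enters the nucleus and binds kB sites in the DNA of its targets. Several of those targets are the inhibitors themselves, which gives the pathway its negative feedback. In mammary tumour cells the pathway is known for driving cytokines, survival genes and matrix proteases.

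The upstream sequences of 4 members are shown because they carry, or lack, the site through which NF-kB is known to act on its own subunits and inhibitors. Each line gives the 250 bases before a RefSeq transcription start on GRCm38.p6, read 5′ to 3′ along the gene, with matches to the kB consensus on either strand in capitals.
Nfkbia, chr12:55492648-55492897, minus strand: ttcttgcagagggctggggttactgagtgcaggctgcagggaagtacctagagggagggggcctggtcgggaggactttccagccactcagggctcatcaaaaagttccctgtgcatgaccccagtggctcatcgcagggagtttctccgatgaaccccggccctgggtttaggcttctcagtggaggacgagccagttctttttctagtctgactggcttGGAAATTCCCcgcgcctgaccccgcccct
Nfkb2 (the most upstream of 3 starts), chr19:46304487-46304736, plus strand: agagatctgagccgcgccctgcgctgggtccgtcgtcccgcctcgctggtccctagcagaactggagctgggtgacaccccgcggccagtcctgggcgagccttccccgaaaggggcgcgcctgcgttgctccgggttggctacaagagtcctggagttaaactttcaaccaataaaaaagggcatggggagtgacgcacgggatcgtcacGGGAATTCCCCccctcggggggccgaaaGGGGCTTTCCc
Nfkbie, chr17:45555450-45555699, plus strand: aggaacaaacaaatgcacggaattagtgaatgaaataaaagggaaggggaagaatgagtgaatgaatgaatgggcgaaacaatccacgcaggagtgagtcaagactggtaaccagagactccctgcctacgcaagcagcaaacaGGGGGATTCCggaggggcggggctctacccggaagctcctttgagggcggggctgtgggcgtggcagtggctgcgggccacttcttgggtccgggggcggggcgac
Rela, chr19:5637291-5637540, plus strand: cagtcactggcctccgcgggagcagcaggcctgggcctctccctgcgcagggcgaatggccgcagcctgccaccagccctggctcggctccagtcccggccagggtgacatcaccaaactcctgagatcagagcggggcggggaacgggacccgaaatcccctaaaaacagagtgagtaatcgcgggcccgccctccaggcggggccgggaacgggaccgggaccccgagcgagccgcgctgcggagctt

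Promoters were found for 7 of the 10 genes, all but Relb, Nfkb1 and Nfkbiz. The kB consensus, a pattern of 10 bases, was present upstream of 5 of these 7 genes (Rel, Nfkb2, Nfkbia, Nfkbie and Tnfaip3), against 4.46% of 27025 genes with a promoter of the same length. Nfkbia held 1 match 20 to 29 bases before the start, which reads GGGAATTTCC on the opposite strand. Nfkb2 held the palindrome GGGAATTCCC 30 to 39 bases before its start, where it counts on both strands and overlaps a further match shifted by 1 base. A last match, GGGGCTTTCC, lay 2 to 11 bases before the same start. By the GENCODE M21 gene positions, the whole of this Nfkb2 window lies inside the gene, which begins at 46304320. The end of the Rela window likewise lies inside Rela, which begins at 5637483. Nfkbie held GGGGGATTCC 97 to 106 bases upstream, and the windows of Rela and Bcl3 held no match. Of the 26 other known NF-kB targets listed below with a promoter, 12 held the consensus. A match describes these letters only, and binding was not measured.

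In the treated samples Rela and Nfkbie were higher, and Nfkb2, Nfkbia, Nfkbiz and, narrowly, Relb were lower, relative to the typical gene. The log2 fold change of Nfkbia, -1.004, was close to the median of genes of similar abundance, -0.93. Its call was lost under 5 of 19 alternative ways of processing. FPKM, the deposited unit, counts fragments per kilobase of a gene's exons and per unit of library size. The typical gene is level between the 2 groups in the deposited values, which had been scaled further between libraries. When each library was scaled by its own reads, worked back from the FPKM, the median log2 fold change was 0.59. Limma on log2(FPKM + 1) was fitted to the 11118 genes that reached 1 FPKM in 3 or more libraries, and a gene was called at a Benjamini-Hochberg adjusted p under 0.05. Of the 10 genes 9 passed that filter, all but Tnfaip3. Nfkbie passed it only through the treated libraries, so it had to differ to be tested. Among those that passed, 2 were higher, 4 lower and 3 not called, beside 56.1% of all genes tested that were called (27.9% higher and 28.3% lower). The share of members called is thus close to that of genes in general, and the number of calls says nothing particular about them. Their median log2 fold change was -0.29 over those tested, against -0.01 over all genes. Treated and control values did not overlap for 7 of the 10 members, 2 higher and 5 lower, beside 67.7% of all genes tested (33.6% higher and 34.1% lower). In bulk samples, fewer cells of a type and less RNA per cell cannot be told apart.

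**Figure D1:**
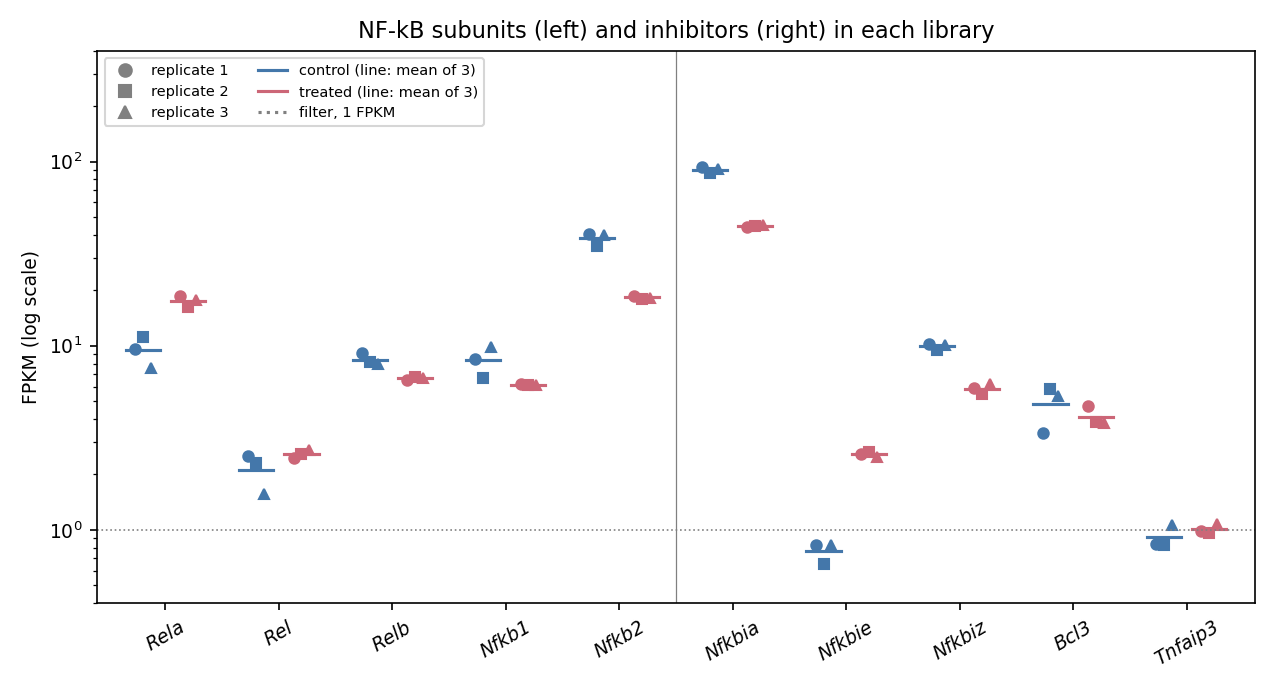
FPKM on a log axis for each of the 10 genes in each library, with control libraries in blue, treated libraries in red, symbols for replicates and short lines for the mean of 3. Treated values of Rela lie between 16.2 and 18.7, above every control value, and those of Nfkb2 lie between 18.0 and 18.7, below every control value.

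The libraries differed in ways that touch these values. Reads at genes, worked back from the FPKM, numbered 32.6 to 38.1 M (1e6) in each library. Genes above 0 FPKM numbered 18115, 18988 and 15829 in controls 1, 2 and 3 and 21821 to 22088 in treated libraries. On log2(FPKM + 1) over the genes tested, control 2 correlated with control 3 at r = 0.911 and with the treated libraries at 0.906 to 0.911. Control 2 was thus no closer to control 3 than to the treated libraries. The 100 most abundant genes held 43.5% to 47.2% of the summed FPKM in control libraries and 29.97% to 30.3% in treated ones. With genes ranked by mean level into 10 groups of nearly equal size, called level groups below, the median log2 fold change ran from 0.52 in the least abundant to -0.93 in the most abundant. Mitochondrial mRNAs summed to between 82.6 and 5631 FPKM in control libraries and between 6605 and 7117 in treated ones, with control 2 at 5631 and the other controls at 726.0 and 82.6. Of 7 epithelial markers 3 passed the filter, with Krt8 and Krt18 abundant, while Cdh1, Cldn7, Krt14 and Esrp1 were at or near 0 in every library; the list summed to 1238 to 1472 FPKM in controls and 617.3 to 650.4 in treated samples. Of 7 fibroblast markers 3 passed and summed with the rest to 204.3 to 1168 against 51.9 to 55.1 FPKM, mostly Col1a1 and Col3a1, while Dcn, Lum and Col1a2 were near 0. Of 7 macrophage markers Cd14 and Cd68 passed (sums 81.8 to 447.2 against 246.6 to 264.4 FPKM), with Adgre1 and Itgam at 0. None of 7 leukocyte markers passed (sums at most 0.542 FPKM), and of 5 endothelial markers only Cdh5 did (sums over the 5 of 0.790 to 1.16 against 1.21 to 1.74 FPKM). The part of these differences in the results below was not tested.

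Rela encodes p65, the subunit with the main transactivation domain of the canonical pathway. Its gene lies on chromosome 19, 5637483 to 5648130 on the plus strand (GRCm38, GENCODE M21, like all positions below). Rela measured 9.61, 11.1 and 7.54 FPKM in controls 1, 2 and 3, against 18.7, 16.2 and 17.6 FPKM in the treated samples in the same order. All 3 treated libraries lay above all 3 control libraries. The mean rose 1.85-fold, from 9.43 ± 1.80 to 17.5 ± 1.26 FPKM (SD, n = 3 per group), on 543 to 2577 reads per library. Limma gave a log2 fold change of 0.84 ± 0.16 (SE, adjusted p = 0.00513). It ranked above 85.3% of the genes tested, and the median of its level group was -0.08. Rela was called higher under all 19 alternatives run, with log2 fold changes between 0.70 and 1.76.

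Rel encodes c-Rel, another subunit with a transactivation domain, best known from lymphocytes. Rel was scarcer, with 2.52, 2.29 and 1.56 FPKM in controls against 2.46, 2.58 and 2.72 after treatment. The groups overlapped. Its log2 fold change of 0.21 ± 0.14 SE was not called (limma adjusted p = 0.244), it was negative and not called with quantile normalization (-0.06), cyclic loess (-0.10) and either trend removal described below (-0.07 and -0.22), and it was called higher with scaling by recovered reads (0.73, limma adjusted p = 0.00719) and by the column total (0.90, 0.00235).

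Nfkb2 encodes p100, which is cut to p52 in the non-canonical pathway and in its uncut form also acts as an inhibitor. It was the most abundant subunit in control cells, at 40.5, 34.6 and 39.9 FPKM, and stood at 18.7, 18.0 and 18.3 FPKM in treated samples. Every treated library lay below every control library. The mean fell from 38.3 ± 3.25 to 18.3 ± 0.362 FPKM (SD, n = 3), 2.09-fold, with a log2 fold change of -1.02 ± 0.11 (SE, limma adjusted p = 0.000757), a call lost only with scaling by the column total (-0.06, limma adjusted p = 0.678). Scaling by the column total moved the median of all genes to 0.80, and Nfkb2 stood 0.85 below that median. The median of its level group was -0.51, and after removal of a trend with GC content, length and level Nfkb2 was at -0.47 (limma adjusted p = 0.0252). Its exons (chromosome 19, 46304320 to 46312385) overlap those of Psd and AC114539.1 on the opposite strand over 6.52% and 11.6% of their length. Those genes were listed at 1.60 to 2.38 and 0.404 to 0.935 FPKM, and the strand setting of the counting is not given in the sources used here.

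Nfkb1 encodes p105, the precursor of p50, and is the usual partner of p65. Control values were 8.45, 6.71 and 9.83 FPKM and treated values 6.23, 6.12 and 6.11 FPKM. The treated values were all lower and closer together, but the log2 fold change of -0.37 ± 0.14 SE was not called (limma adjusted p = 0.0703). It was called lower under 4 of 19 alternatives. These were leaving out control 2 (-0.50, limma adjusted p = 0.00883), quantile normalization (-0.38, 0.0475), removal of a trend with GC content and length (-0.67, 0.0172) and removal of that trend with level as well (-0.55, 0.0391). With scaling by recovered reads it was positive and not called (0.29, limma adjusted p = 0.0664), and by the column total it was called higher (0.51, 0.00758).

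Relb encodes the partner of p52 in the non-canonical pathway. Control values were 9.11, 8.13 and 8.00 FPKM and treated values 6.54, 6.80 and 6.68 FPKM, without overlap. The log2 fold change of -0.29 ± 0.10 SE was called by a small margin (limma adjusted p = 0.0447). Relb was called higher instead with scaling by recovered reads (0.37, limma adjusted p = 0.033) and by the column total (0.59, 0.00534). Leaving out control 1 ended the call (limma adjusted p = 0.125), as did leaving out any treated library (0.158, 0.137 and 0.145 for 1, 2 and 3). It was also lost with sample weights per group (limma adjusted p = 0.0727) and after removal of a trend with GC content and length (0.337), or with level as well (0.103).

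The make-up of the subunit pool, which a common factor for all genes of a library cannot change, differed between the groups. A shift that varies with level can change it. Nfkb2 and Rela belong to level groups with medians of -0.51 and -0.08. Quantile normalization and cyclic loess put the log2 fold change of Nfkb2 at -0.57 and -0.55, instead of -1.02. They put that of Rela at 1.03 and 1.01, instead of 0.84. The part of such a shift in the shares was not tested. Of the summed FPKM of the 5 subunits, Rela made up 13.7%, 17.7% and 11.3% in the controls and 35.5%, 32.5% and 34.3% in the treated libraries. Nfkb2 made up 57.7%, 55.0% and 59.7% in controls and 35.6%, 36.3% and 35.5% in treated samples. Rela thus went from a small part of the pool to about the same FPKM as Nfkb2. The ratio of Nfkb2 to Rela was 4.22, 3.11 and 5.28 in controls and 1.00, 1.12 and 1.04 in treated samples. The shares of Relb and Nfkb1 overlapped between groups, at most 13.0% in controls against 12.4% to 13.7% for Relb and at 10.7% to 14.7% against 11.8% to 12.3% for Nfkb1. For Rel the share was 2.34% to 3.65% against 4.67% to 5.30%. These shares were chosen after the values were seen and are a description. The exact two-sided permutation test over 3 against 3 libraries gave p = 0.1 for the Rela and Nfkb2 shares, the smallest this design allows, among 24 such shares, ratios and sums computed.

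**Figure D2:**
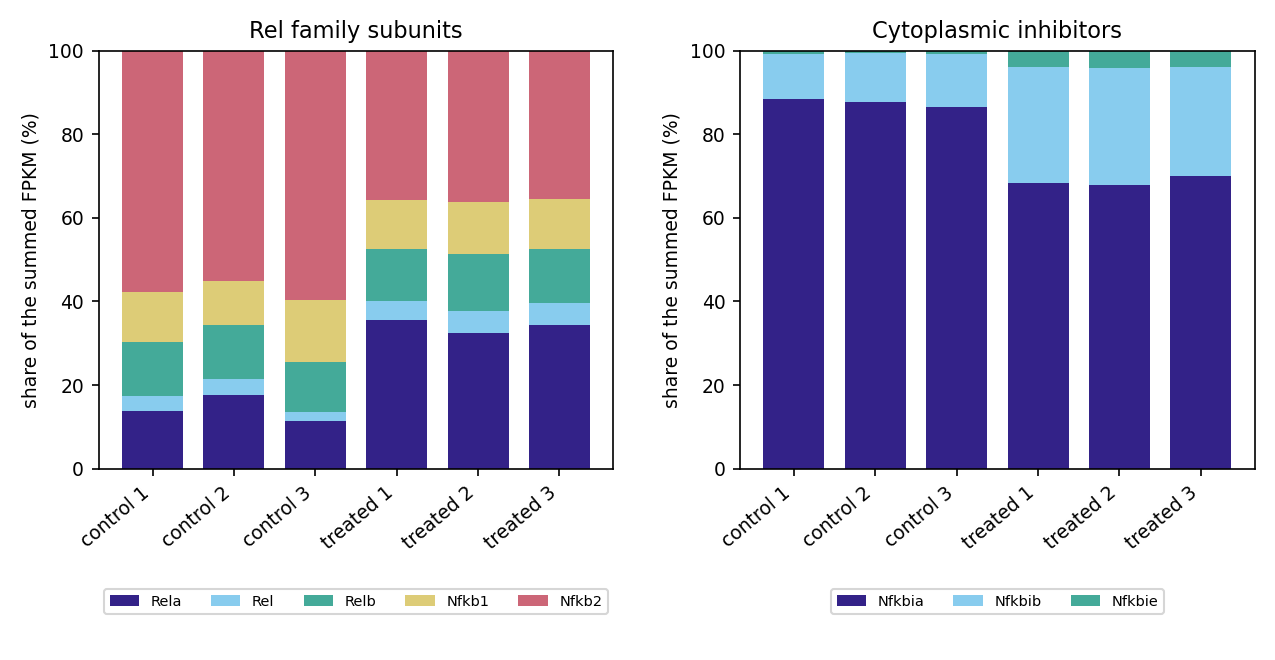
Share in percent of the summed FPKM within each library, for the 5 subunits (left) and for the 3 cytoplasmic inhibitors Nfkbia, Nfkbib and Nfkbie (right). In the left panel Rela grows from 11.3% to 17.7% in controls to 32.5% to 35.5% in treated libraries, and in the right panel Nfkbia shrinks from 86.6% to 88.6% to 67.9% to 70.0%.

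Nfkbia encodes IkBα, the inhibitor that is degraded and quickly made again in canonical signalling. It was the most abundant of the 10 transcripts, at 93.8, 87.2 and 90.7 FPKM in controls and 44.3, 44.5 and 45.1 FPKM in treated samples. The groups were far apart and each was tight. The mean fell 2.03-fold, from 90.6 ± 3.30 to 44.6 ± 0.446 FPKM (SD, n = 3), with a log2 fold change of -1.004 ± 0.10 (SE, limma adjusted p = 0.000643). The gene lies on chromosome 12, 55489410 to 55492647 on the minus strand, and was covered by 3164 to 4726 reads per library.

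The call of Nfkbia was lost under 5 of 19 alternatives, all of them changes of the scaling or the removal of a trend with level. The median of its level group was -0.93, close to its own value. With a trend in GC content and length taken out, Nfkbia stayed called at -0.66 (limma adjusted p = 0.00283). With level taken out as well it was at -0.15 and not called (limma adjusted p = 0.262). It was not called with quantile normalization (-0.19, limma adjusted p = 0.177) or cyclic loess (-0.22, 0.13). Nor was it called with scaling by recovered reads (-0.27, limma adjusted p = 0.0744) or by the column total (-0.02, 0.897), under which the all-gene median was 0.59 and 0.80. The ratio of Nfkbia to Nfkb2 overlapped between groups, at 2.31, 2.52 and 2.28 in controls and 2.36, 2.47 and 2.47 in treated samples. The ratio of Nfkbia to Rela did not, at 9.76, 7.84 and 12.03 in controls and 2.37, 2.75 and 2.56 in treated samples.

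**Figure D3:**
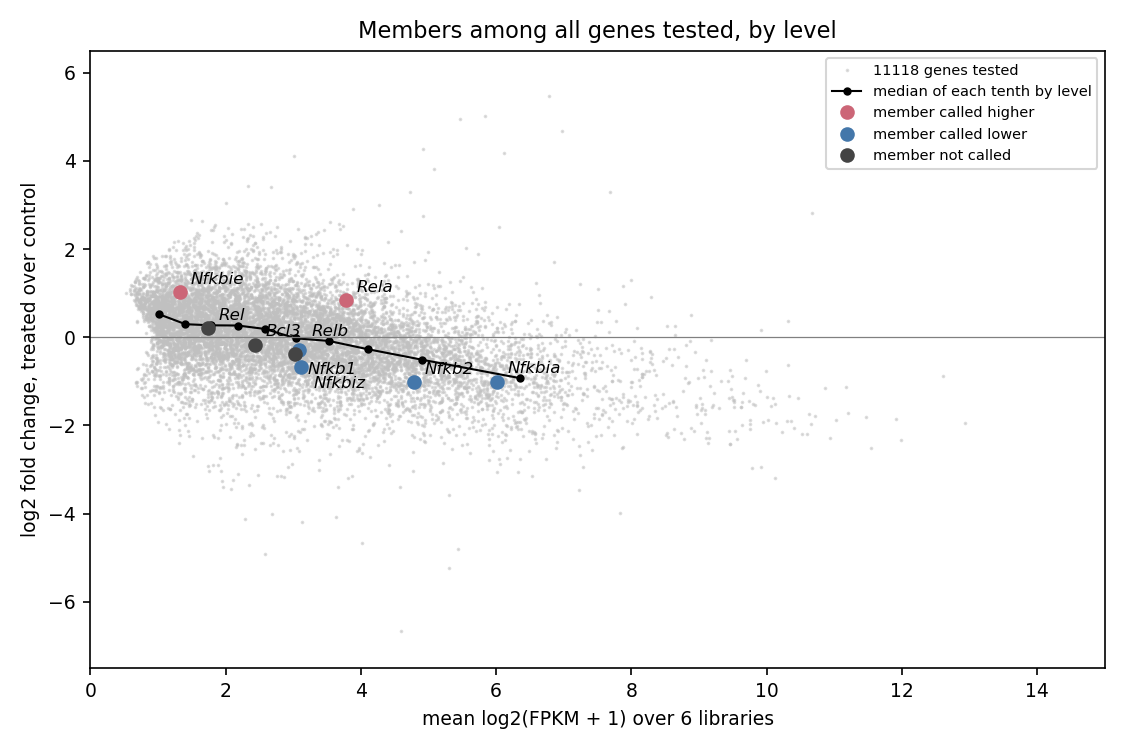
Log2 fold change against mean log2(FPKM + 1) for the 11118 genes tested (grey) and the tested members (coloured by call), with the median of each of 10 level groups as a black line. Nfkbia at -1.004 lies near the line, while Rela at 0.84 lies above it and Nfkbiz at -0.68 lies below it.

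Nfkbie encodes IkBε, a slower inhibitor of the same family that binds p65 and c-Rel dimers. Control values were 0.829, 0.652 and 0.827 FPKM and treated values 2.58, 2.66 and 2.49 FPKM. All treated values were at least 2.49 FPKM and all control values under 1. The mean rose 3.35-fold, from 0.769 ± 0.101 to 2.58 ± 0.0868 FPKM (SD, n = 3), on 59 to 79 reads per control library. Limma gave a log2 fold change of 1.02 ± 0.09 (SE, adjusted p = 0.000452). Nfkbie passed the filter only through the treated libraries, so it had to differ to be tested there. With no filter on low values its adjusted p by limma was 0.00318. It was called higher under all 15 alternatives that tested it, with log2 fold changes from 0.63 to 1.63. The gene lies on chromosome 17, 45555703 to 45563169 on the plus strand.

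The inhibitors that hold NF-kB in the cytoplasm did not all change in one direction. Nfkbib, which encodes IkBβ and was added after its values were seen, rose from 11.97 ± 1.05 to 17.7 ± 0.782 FPKM (log2 fold change 0.53, limma adjusted p = 0.00726). Exons of Nfkbib overlap Ccer2 and Sirt2 on the opposite strand over 14.48% and 1.94% of their length, so its value is uncertain. Within each library Nfkbia made up 88.6%, 87.8% and 86.6% of the summed FPKM of the 3 inhibitors in controls and 68.3%, 67.9% and 70.0% in treated samples. Nfkbie made up 0.657% to 0.789% in controls and 3.86% to 4.06% in treated samples. The 5 members other than subunits (Nfkbia, Nfkbie, Nfkbiz, Bcl3 and Tnfaip3) summed to 1.55, 1.65 and 1.62 times the 5 subunits in controls. After treatment they summed to 1.11, 1.15 and 1.14 times the subunits. Nfkbia made up most of that sum, with means of 90.6 of 107.0 FPKM in controls and 44.6 of 58.2 FPKM in treated samples. These sums and shares therefore largely follow Nfkbia, for which the median of its level group was -0.93.

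Nfkbiz encodes IkBζ, a nuclear protein of the IkB family that joins p50 on the DNA and is needed for a subset of targets. Its control values of 10.2, 9.51 and 10.2 FPKM did not overlap its treated values of 5.86, 5.44 and 6.18 FPKM. The mean fell 1.71-fold, from 9.95 ± 0.385 to 5.83 ± 0.368 FPKM (SD, n = 3). Limma gave a log2 fold change of -0.68 ± 0.10 (SE, adjusted p = 0.00209). With scaling by recovered reads it was at -0.02, and with scaling by the column total at 0.20 (limma adjusted p = 0.86 and 0.153), which is 0.62 and 0.60 below the median of all genes under those scalings. The median of its level group was -0.02, and with GC content, length and level taken out the log2 fold change of Nfkbiz was -0.82 (limma adjusted p = 0.0012). The gene lies on chromosome 16, 55811375 to 55838899 on the minus strand.

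Bcl3 encodes another nuclear IkB protein, which binds dimers of p50 or p52 and can activate or repress. Control values were 3.37, 5.81 and 5.31 FPKM and treated values 4.70, 3.84 and 3.79 FPKM. The groups overlapped, with control 1 the lowest of all. The log2 fold change of -0.17 ± 0.19 SE was not called (limma adjusted p = 0.482), it was positive and not called after either trend removal (0.42 and 0.15) and with scaling by recovered reads (0.44), and with scaling by the column total it was called higher (0.65, limma adjusted p = 0.0167). Exons of Bcl3 overlap Gm16175 on the opposite strand over 6.51% of their length.

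Tnfaip3 encodes A20, an enzyme that edits ubiquitin chains and shuts off signalling upstream of the IkB kinase. It measured 0.840, 0.829 and 1.06 FPKM in controls and 0.989, 0.958 and 1.08 FPKM after treatment, on 179 to 346 reads per library. The values overlapped and lay around the filter of 1 FPKM, so it was tested only with no filter on low values. There limma gave 0.08 ± 0.12 SE on the log2 scale (adjusted p = 0.653).

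**Figure D4:**
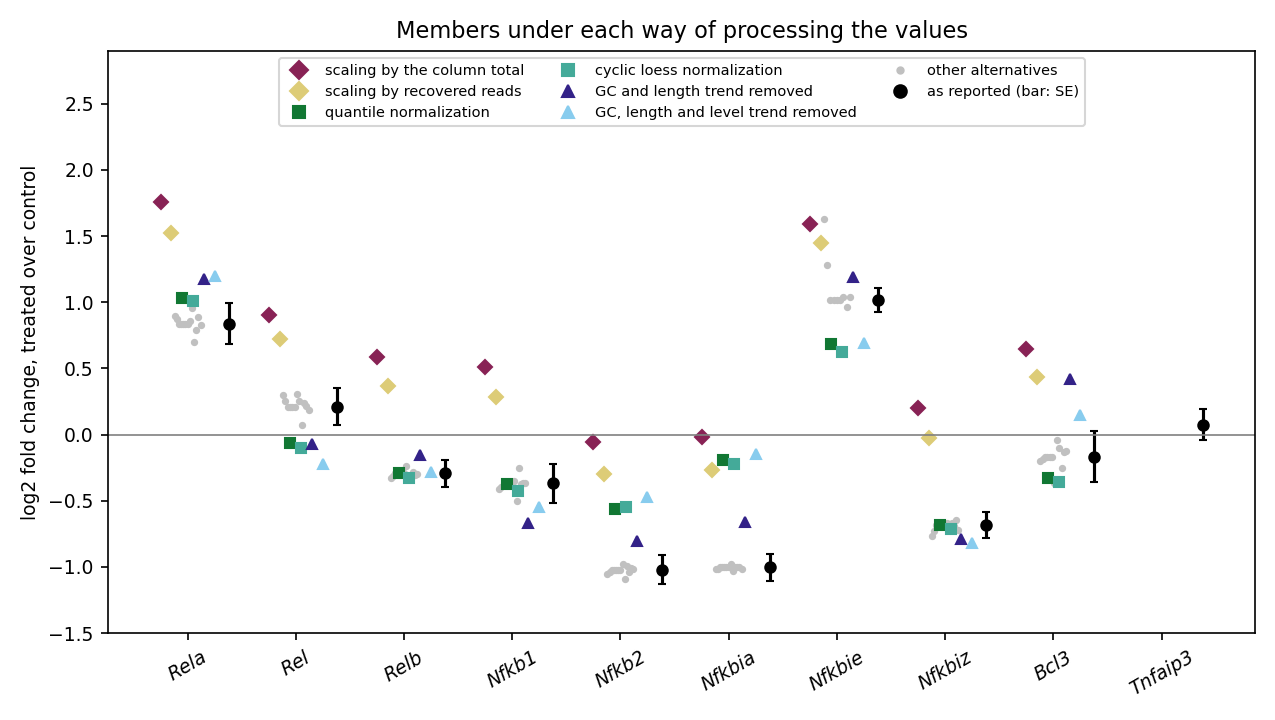
Log2 fold change of each gene under each way of processing the values, with the reported value and its SE in black, scalings and trend removals in colour and all other alternatives in grey. Rela stays above 0 in every setting, and Nfkbia spreads from -1.03 to -0.02. Nfkbie is above 0 wherever it was tested, but it passed the filter only through treated libraries, so with a filter it had to differ.

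By level, the order in control cells was Nfkbia, Nfkb2, Nfkbiz, Rela, Relb, Nfkb1, Bcl3, Rel, Tnfaip3 and Nfkbie. The 4 genes from Nfkbiz to Nfkb1 had control means from 8.33 to 9.95 FPKM, and their control values overlapped from each to the next. In treated cells Rela (17.5 FPKM) stood beside Nfkb2 (18.3 FPKM), with treated values that overlapped, and Nfkbie (2.58 FPKM) stood beside Rel (2.59 FPKM). The lowest in treated cells was Tnfaip3. These are levels per length of all annotated exons of a gene joined, from 1610 bases for Nfkbia to 12061 for Nfkb1. A gene whose main transcript is shorter than that length is understated, so the order between genes is approximate.

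Nfkb2 had the largest absolute change among called members on the log2(FPKM + 1) scale (-1.02, with Nfkbie at 1.02), by a margin in the third decimal; with a pseudocount of 0.5 or 0.1 Nfkbie was larger (1.28 and 1.63 against -1.04 and -1.06). The 3 genes outside the lists whose log2(FPKM + 1) profile over the 6 libraries lay nearest to it, each profile centred on its own mean, were Tmem159, Carhsp1 and Pdxdc1. Their Euclidean distances were 0.0908, 0.1003 and 0.105, and their log2 fold changes -1.07, -1.04 and -0.99.

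Other genes of the pathway were counted from 5 lists, 111 genes in all, of which 86 were tested and 29 were higher and 16 lower, beside 27.9% and 28.3% of all genes tested. Their median log2 fold change was 0.27. Of the 111, 27 share exon bases with another gene, and these were counted with the rest. With scaling by recovered reads 63 were higher and 8 lower, and by the column total 68 and 6, against medians over all genes of 0.59 and 0.80. With a trend with GC content, length and level taken out, 33 were higher and 21 lower. Over all genes the median log2 fold change ran from 0.52 in the lowest level group to -0.93 in the highest. The part of level in the counts of each list below was not tested.

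Of 11 ligands that start the pathway only 3 passed the filter. Ltb, which encodes lymphotoxin β, fell from 2.12 ± 0.450 to 0.451 ± 0.193 FPKM (log2 fold change -1.10, limma adjusted p = 0.00164), and the other two were not called. Ltb passed the filter only through the control libraries. Tnf, which encodes tumour necrosis factor and was named after its values were seen, had 0 reads in all 6 libraries, which allows at most 0.0781 FPKM (3 reads in control 3). Counting error only is covered by that limit.

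Of receptors and adaptors, 13 of 26 tested were higher, 1 lower and 12 not called (median 0.37), beside 27.9% higher and 28.3% lower among all genes. Of the 13, 5 (Tlr2, Tlr4, Ripk1, Birc3 and Irak4) were under 1 FPKM in every control library and passed the filter only through treated ones, so they had to be higher to be tested. They are named after their values were seen. Traf6, which encodes a ubiquitin ligase that links interleukin 1 and Toll-like receptors to the kinases, had control values of 1.13, 1.10 and 1.43 FPKM and treated values of 6.18, 6.04 and 5.87 FPKM. The mean rose 4.94-fold (log2 fold change 1.67 ± 0.10 SE, limma adjusted p = 0.000223), and the median of its level group was 0.27. The gene that fell was Birc2, which encodes the ubiquitin ligase cIAP1, from 10.6 ± 1.25 to 7.18 ± 0.405 FPKM (log2 fold change -0.49, limma adjusted p = 0.0134). Leaving out any treated library ended the call of Birc2 (limma adjusted p = 0.0574, 0.0708 and 0.051 for 1, 2 and 3). With scaling by recovered reads its log2 fold change was positive and not called (0.17, limma adjusted p = 0.313). By the column total Birc2 was called higher (0.40, limma adjusted p = 0.049).

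Of 12 kinases, all tested, 7 were higher, 0 lower and 5 not called by limma (median 0.60), and 0 were lower at an unadjusted p under 0.05 as well. Among all genes 27.9% were higher and 28.3% lower. Of the 7, Map3k8 was under 1 FPKM in every control library and passed the filter only through treated ones. Ikbkg, also called higher, shares 5.15% of its exon length with G6pdx on the opposite strand, so its value is uncertain. G6pdx was at 7.68 to 10.9 FPKM in controls and 28.5 to 29.8 in treated libraries. Map3k7, which encodes TAK1, the kinase that activates the IkB kinase complex, rose from 2.76 ± 0.525 to 7.36 ± 0.585 FPKM (log2 fold change 1.16, limma adjusted p = 0.000988). Tbk1, a related kinase of innate immune signalling, rose from 5.73 ± 0.0479 to 10.0 ± 0.554 FPKM (0.71, limma adjusted p = 0.00164). Ikbkb and Chuk, the catalytic subunits of the complex, were named after their values were seen. Ikbkb rose from 1.01 ± 0.0335 to 1.68 ± 0.0381 FPKM (0.42, limma adjusted p = 0.00561), and Chuk stood at 5.82 ± 0.871 and 5.16 ± 0.292 FPKM (-0.14, limma adjusted p = 0.385). The medians of the level groups of Map3k7, Tbk1, Ikbkb and Chuk were 0.19, -0.02, 0.30 and 0.19.

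Of other inhibitors and ubiquitin enzymes, 4 of 18 tested were higher, 5 lower and 9 not called (median 0.17), shares near the 27.9% and 28.3% of all genes. Zc3h12a, which encodes the ribonuclease regnase-1 that degrades inflammatory mRNAs, rose 2.94-fold from 2.02 ± 0.268 to 5.96 ± 0.121 FPKM (log2 fold change 1.21, limma adjusted p = 0.00044). Tnip2, which encodes a partner of A20, fell 2.26-fold from 9.17 ± 1.52 to 4.06 ± 0.472 FPKM (-0.999, limma adjusted p = 0.00219). The call of Tnip2 was lost with scaling by recovered reads (-0.36, limma adjusted p = 0.0823) and by the column total (-0.14, 0.458).

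Of known NF-kB targets, 5 of 27 tested were higher, 9 lower and 13 not called (median -0.07), beside 27.9% and 28.3% of all genes, and 11 of the 38 listed were below the filter. Csf1, which encodes macrophage colony-stimulating factor, rose 2.51-fold from 3.74 ± 0.572 to 9.38 ± 0.0682 FPKM (log2 fold change 1.14, limma adjusted p = 0.000704). Mmp9, a secreted matrix protease, fell from 94.1, 99.4 and 104.3 FPKM to 12.6, 12.5 and 13.4 FPKM (-2.86, limma adjusted p = 0.000136). Both calls were made under all 19 alternatives run.

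**Figure D5:**
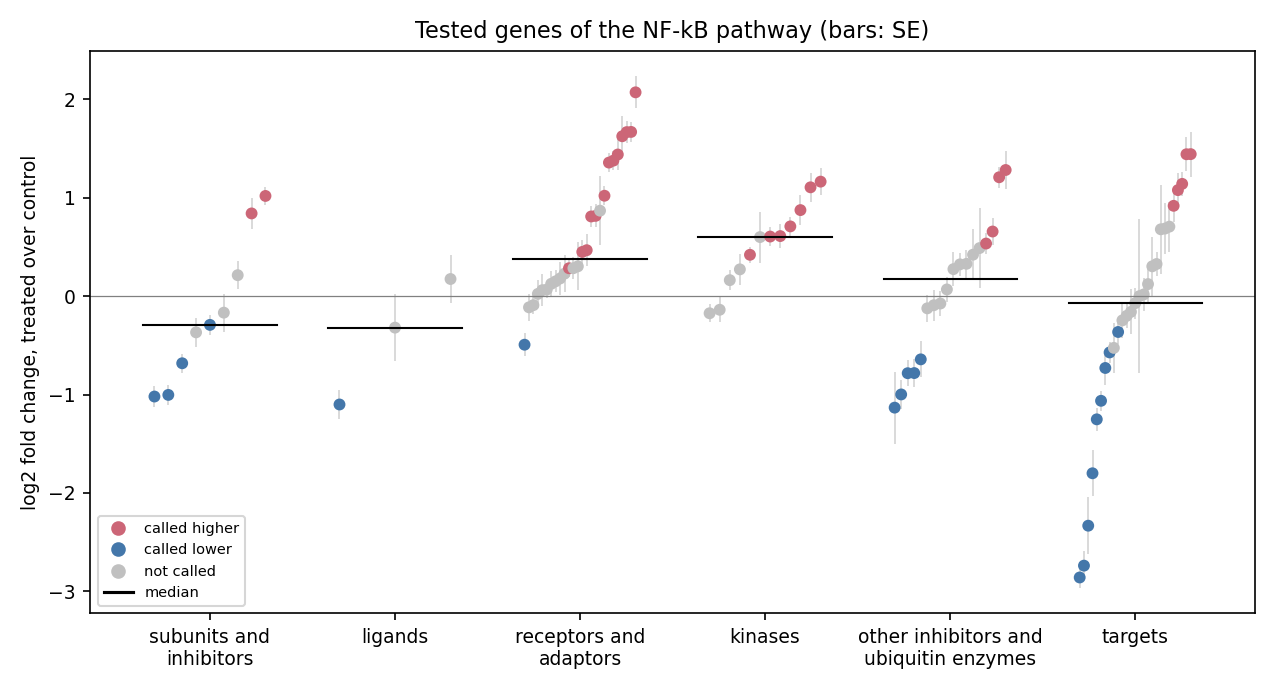
Log2 fold change with SE of each tested gene of the NF-kB pathway, sorted within each list and coloured by call, with the median of each list as a black line. The kinases hold 7 genes called higher and 0 called lower, while the targets run from -2.86 for Mmp9 to above 1.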

How the data were processed

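RNA was sequenced as paired 150 bp reads after poly-T selection, per the labels' protocols. The authors deposited 1 FPKM value per gene and sample, per the file headers. For the aligner, counter, build, annotation and strand, the entry is "not given in the sources used here". Symbols, exon lengths and positions were looked up in GENCODE M21 (GRCm38) for 52073 of 56748 identifiers, and may differ from the annotation the authors used. The members, gene lists and tests were chosen with earlier results of these data known.

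Reads were worked back from FPKM times exon length. Of the values under 200 reads, 92.3% to 93.4% were whole within 0.02 of a read, and every member was whole. The protocols name no molecular identifiers, so a limit from reads covers counting error only. The library size implied by the FPKM was 0.719 to 0.839 times the recovered reads in controls and 1.32 to 1.33 times in treated samples, so the values had been scaled further between libraries. Limma 3.58.1 in R 4.3.3 was run on log2(FPKM + 1) with a trended prior variance, group as the only term, and genes that reached 1 FPKM in 3 or more libraries. That scale understates changes of low genes. The procedure was run on simulated data with few changed genes and no trend with level, unlike these data. That run therefore does not test the calls given here. Named genes were all members, the called pathway gene of smallest p in each direction per list (the 2 of smallest p where all moved one way) that shares no exon bases with another gene, and the 3 nearest profiles. Promoters were RefSeq's on GRCm38.p6, searched on both strands. Alternatives covered scaling, pseudocount, filter, spread, replicate block and leaving out each library; 2 were added after the data were seen, scaling by recovered reads and removal of a trend with GC content, length and level.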

Additional observations from a re-analysis of the deposited data

How the results depend on the processing

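Rela, Traf6, Map3k7, Tbk1, Zc3h12a, Csf1 and Mmp9 kept their direction and call under all 19 alternatives, and Nfkbie and Ltb under the 15 that tested each. Nfkbie passed the filter only through treated libraries and Ltb only through controls, so wherever a filter was used they had to differ to be tested. With no filter on low values limma gave adjusted p = 0.00318 for Nfkbie and 0.00875 for Ltb. Calls of Nfkbia, Nfkb2, Nfkbiz, Relb, Birc2 and Tnip2 were lost or turned under at least 1, and the cause was not tested. With scaling by the column total 7180 genes were higher and 736 lower, with 6 members higher and 0 lower (0 also at an unadjusted p under 0.05 by limma), and 68 and 6 pathway genes. The log2 fold changes that turned were Relb 0.59, Nfkb1 0.51, Nfkbiz 0.20, Bcl3 0.65 and Birc2 0.40. With scaling by recovered reads 6034 genes were higher and 1150 lower, with 4 members higher and 1 lower, and 63 and 8 pathway genes; Relb turned to 0.37, Nfkb1 to 0.29, Bcl3 to 0.44 and Birc2 to 0.17. With a minimum of 5 FPKM 1385 genes and 1 member were higher, and 10 pathway genes lower, with 6 members and 53 pathway genes tested.

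Leaving out 1 library gave 1542 to 3637 genes higher and 2011 to 3585 lower, 1 or 2 members higher and 3 to 5 lower, and 19 to 38 pathway genes higher and 11 to 19 lower. The counts over all genes were lowest without treated 1, 2 or 3 (1575, 1597 and 1542 higher, 2068, 2136 and 2011 lower). Without a treated library Nfkbie fell below the filter and was not tested. With the replicate number as a block 2618 genes were higher and 2669 lower. Of the members only Relb changed, to not called (limma adjusted p = 0.159). Birc2, from the receptors and adaptors, was not called either (limma adjusted p = 0.051). Same-numbered samples did not deviate together (r of -0.05, -0.11 and -0.14 across genes). With values centred within groups of 3, that check shows no sign of pairing but cannot exclude it. Depth limits Nfkbie and Tnfaip3, on 59 and 179 reads in their shallowest libraries.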
